A study of Mus musculus with 18 samples.

Results

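Transcripts of 10 lipid droplet genes were followed through 18 RNA sequencing libraries of mouse spleen: the perilipins Plin2, Plin3, Plin4 and Plin5, and the lipolysis genes Pnpla2, Abhd5, G0s2, Hilpda, Lipe and Mgll. The list was built around Plin2, which had been chosen by its measured difference between HS and control libraries, and the other 9 were added by name as genes of the same organelle. All 10 symbols were found among the 19326 lines of the deposited table, on 11 lines, because Plin2 stands on 2 of them. Lines were tested where 3 or more libraries reached 1 FPKM. Of these 12969 lines 10 belong to these genes, and Plin5 was too low to be tested.

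The spleens were those of 10-week-old ICR mice, and 6 groups had 3 libraries each. HS_AOSFMT, HS_conFMT, HS_AOS and HS mice had all received the high fat diet together with streptozotocin (STZ), a toxin of insulin-producing cells. To this, HS_AOSFMT added a faecal microbiota transplant (FMT) from donors given AOS at 10 mg/kg, HS_conFMT added FMT from control donors, HS_AOS added AOS itself at 10 mg/kg, and HS added nothing. AOS mice received 10 mg/kg AOS without diet or STZ, and control mice received none of these. The labels leave the abbreviation AOS unexplained, and the series title states the aim of testing whether the transplant relieves the effect of diet and STZ on the spleen. Whether libraries of the same group are from different animals is not stated in the labels, so every p-value given here measures the spread between libraries.

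Lipid droplets store triglycerides and cholesterol esters behind a single layer of phospholipid, and perilipins coat that surface and control access to it. Triglycerides are broken down in steps: adipose triglyceride lipase (encoded by Pnpla2) removes the first fatty acid, hormone-sensitive lipase (Lipe) the next and monoacylglycerol lipase (Mgll) the last, while Abhd5 encodes the activator of the first lipase and G0s2 and Hilpda encode inhibitors of it. Outside fat tissue Plin2 is the usual coat protein, found in macrophages among other cells, and its transcript is a known target of the fatty acid sensing PPAR receptors.

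Levels are in FPKM, which divides the fragments of a gene by its length and by the library total, so that levels of different genes can be set side by side. Summed FPKM ran from 666441 to 831448 per library, between 12221 and 12898 genes reached 1 FPKM, and depth in reads is unknown. Markers of spleen B and T cells were present in all libraries. Some kinds of transcript varied strongly between libraries. Pancreatic acinar enzymes (19 genes) summed to 25931 FPKM in HS_AOS 1, to 23429 FPKM in HS 1 and to at most 3901 FPKM elsewhere, neutrophil markers (16 genes) reached 16187 FPKM in control 1, and erythroid markers took 12.2 to 17.1% of all FPKM in HS_AOSFMT libraries and 13.9 to 33.8% in the other 15. Results that rest on HS 1, HS_AOS 1 or control 1 were recomputed without those libraries.

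Over all 18 libraries Plin2 was the most abundant of the 10 transcripts, at a mean of 33.1 FPKM, followed by Mgll at 27.4 FPKM and Pnpla2 at 24.6 FPKM. Plin3 (13.1 FPKM) and G0s2 (12.3 FPKM) formed the middle of the order, and Hilpda (9.07 FPKM), Lipe (9.04 FPKM) and Abhd5 (8.45 FPKM) lay close together. Plin4 averaged 1.11 FPKM and Plin5 0.149 FPKM. The lowest Pnpla2 value, 20.6 FPKM, was above the highest Plin3 value, 17.5 FPKM, and the ranges of all other neighbours down to Abhd5 overlapped. Plin4 peaked at 3.45 FPKM, below the lowest Abhd5 value of 6.19 FPKM, and Plin5 did not pass 0.35 FPKM.

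Plin2 (chr4:86648386-86670060 in mm10, minus strand, GENCODE M21) was higher in every library with diet and STZ than in any without them. Its level was 44.3, 48.1 and 44.0 FPKM in HS_AOSFMT, 30.9, 31.2 and 30.4 FPKM in HS_conFMT, and 38.3, 32.6 and 30.4 FPKM in HS_AOS. It was 41.9, 39.1 and 39.3 FPKM in HS, against 22.5, 25.7 and 27.0 FPKM in AOS and 23.2, 25.5 and 22.2 FPKM in control. The 12 diet and STZ libraries thus ran from 30.4 to 48.1 FPKM and the 6 others from 22.2 to 27.0 FPKM. Of the 10 lines tested here, Plin2 was the 1 without overlap between these sets, and 0.123% of all tested lines (16, with 13 of them higher) had none. HS and control belong to that split and had served to choose the gene, so the split is a description.

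The group means of Plin2 were 45.5 ± 2.30 FPKM in HS_AOSFMT, 30.8 ± 0.427 FPKM in HS_conFMT, 33.8 ± 4.05 FPKM in HS_AOS, 40.1 ± 1.55 FPKM in HS, 25.0 ± 2.35 FPKM in AOS and 23.6 ± 1.70 FPKM in control (SD, n = 3 each). Ranked by mean, HS_AOSFMT was followed by HS, HS_AOS, HS_conFMT, AOS and control. In this ranking the deposited ranges of HS_AOS and HS_conFMT overlapped, as did those of AOS and control, and the other neighbours were separate. HS_AOSFMT and HS also overlapped under both other scalings described below. Separate ranges of 3 and 3 libraries, here and for all genes below, are a description. The share of all lines with separate ranges was not counted for comparisons of 3 with 3 libraries. Because whole spleen was sequenced, a higher level per cell and a larger share of cells that carry the transcript cannot be told apart, here and for all genes below.

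**Figure D1:**
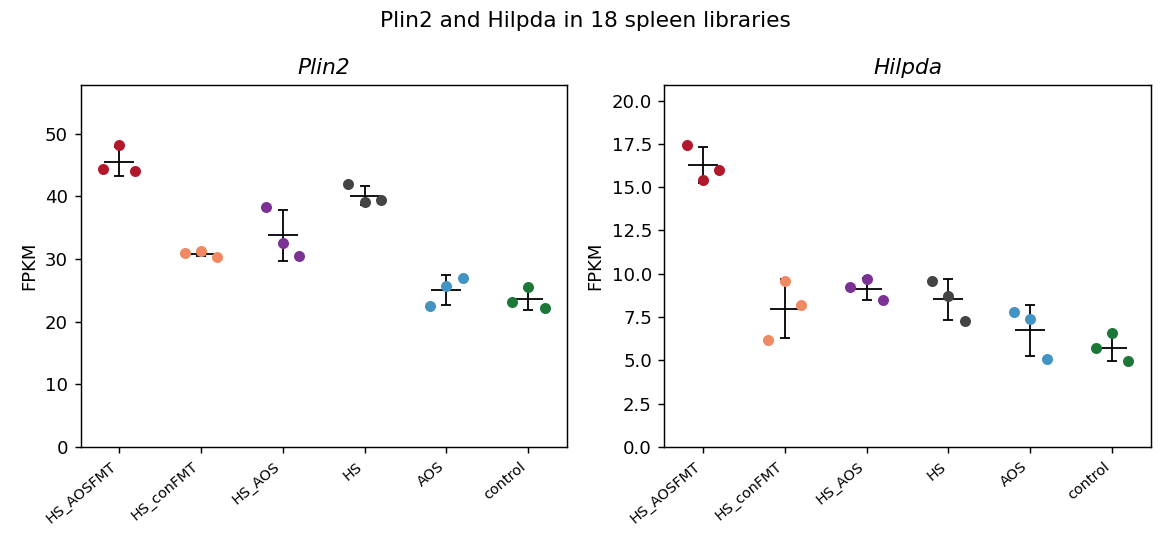
FPKM of Plin2 (left) and Hilpda (right) in each of 18 spleen libraries by group; points are libraries, the long dash is the group mean and the bar its SD (n = 3). As deposited, all 3 HS_AOSFMT libraries are the highest of the 18 for both genes, at 44.0 to 48.1 FPKM for Plin2 and 15.4 to 17.4 FPKM for Hilpda. For Plin2 this depends on scaling. With haemoglobin and acinar genes left out of the library total, or with median-of-ratios scaling, HS 1 is above HS_AOSFMT 1 and HS_AOSFMT 3.

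Plin2 levels did not overlap between recipients of AOS-donor and control-donor transplants. In HS_AOSFMT they were 44.0 to 48.1 FPKM, against 30.4 to 31.2 FPKM in HS_conFMT, a ratio of means of 1.48 (log2 change of FPKM + 1, the scale of all log2 changes here, 0.55, SE 0.087, 95% interval 0.36 to 0.73, adjusted p = 0.00331). Plin2 rose in this comparison by limma over all 12969 tested lines with Benjamini-Hochberg adjustment, as for all adjusted p-values below. The groups compared share no library with the comparison that had chosen the gene. The SE, however, was estimated from all 18 libraries, HS and control included. Fitted to HS_AOSFMT and HS_conFMT alone, limma gave Plin2 an adjusted p of 0.0303. Hilpda also rose, so that 2 of the 10 tested lines were called, against 5.85% of all lines. Both held in every alternative processing, with Plin2 between 0.46 and 0.57 on the log2 scale.

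Against HS alone, Plin2 was slightly higher in HS_AOSFMT and lower in HS_conFMT, and neither difference passed the test. The log2 change was 0.18 (SE 0.087, adjusted p = 0.196) for HS_AOSFMT and -0.37 (SE 0.087, adjusted p = 0.455) for HS_conFMT. As deposited, the 3 libraries lay wholly on one side of the 3 HS libraries in both cases. These comparisons share the HS libraries that took part in the choice of Plin2. The first value depended on the scaling. It was 0.055 with haemoglobin and acinar genes left out of the library total, and 0.062 with median-of-ratios scaling. The median over all tested lines was 0.10 as deposited, -0.0092 and -0.0032. With either scaling HS 1 stood above HS_AOSFMT 1 and HS_AOSFMT 3, so that HS_AOSFMT and HS overlapped. Of the 10 tested lines, 1 (Hilpda) was called in HS_AOSFMT against HS, where 9.23% of all lines were. In HS_conFMT against HS limma called 0 of the 10 lines and 0.00771% of all lines. An unadjusted p under 0.05 was reached there by 4 of the 10 and by 819 of all 12969 lines.

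AOS given directly did not move Plin2 past the test. Under diet and STZ its level was 30.4 to 38.3 FPKM in HS_AOS, against 39.1 to 41.9 FPKM in HS, without overlap (log2 change -0.25, SE 0.087, 95% interval -0.43 to -0.064, adjusted p = 0.827). Without diet and STZ the AOS and control ranges overlapped (log2 change 0.080, SE 0.087, 95% interval -0.10 to 0.26, adjusted p = 0.742). The size of this last value depended on scaling and single libraries: it was 0.021 and 0.023 under the 2 other scalings, 0.15 without AOS 1, 0.025 without AOS 3, 0.13 without control 2 and 0.037 without control 3. In the first of these comparisons limma called 0 of the 10 lines and 0% of all lines. An unadjusted p under 0.05 was reached there by 2 of the 10 and by 674 of all 12969 lines. In the other it called 0 of the 10 lines and 0.00771% of all lines. There 1 of the 10 (Abhd5) and 1471 of all 12969 lines had an unadjusted p under 0.05.

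The effect of diet and STZ could be read in AOS-dosed mice, whose group means came from libraries with no part in choosing Plin2. The SE, however, was estimated from all 18 libraries, HS and control included. HS_AOS gave 38.3, 32.6 and 30.4 FPKM, against 22.5, 25.7 and 27.0 FPKM in AOS, a ratio of means of 1.35. All 3 HS_AOS libraries were above all 3 AOS libraries, and the difference did not pass the test (log2 change 0.41, SE 0.087, 95% interval 0.23 to 0.60, adjusted p = 0.124). The adjusted p was 0.054 to 0.59 over the alternatives, the lowest with haemoglobin and acinar genes left out of the total. It was 0.278 in the fit to HS_AOS and AOS alone. In this comparison limma called 0 of the 10 lines and 0.0386% of all lines. An unadjusted p under 0.05 was reached by 2 of the 10 (Plin2 and Hilpda) and by 1088 of all 12969 lines. In HS against control, which chose Plin2, the ratio of means was 1.70, 1 of the 10 lines (Plin2) was called and 0.0154% of all lines were. Fitted to these 6 libraries alone, that comparison called 0 of the 10.

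The difference between these contrasts, HS_AOS minus AOS less HS minus control, was -0.33 for Plin2 on the log2 scale (SE 0.12, 95% interval -0.59 to -0.067, adjusted p = 0.714). It takes in the HS and control libraries by which the gene was chosen. limma called 0 of the 10 lines there and 0.00771% of all lines. An unadjusted p under 0.05 was reached by 3 of the 10 and by 774 of all 12969 lines.

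Set against control mice, the transplant recipients kept the same order. Plin2 rose in HS_AOSFMT, with a ratio of means of 1.93 (log2 change 0.92, SE 0.087, adjusted p = 2.67e-05), and Hilpda rose too, so that 2 of the 10 lines were called and 12% of all lines. Plin2 in HS_conFMT was 1.31 times the control mean, without overlap, and did not pass the test (log2 change 0.37, SE 0.087, adjusted p = 0.187). In HS_conFMT against control limma called 0 of the 10 lines and 0.0386% of all lines. An unadjusted p under 0.05 was reached there by 4 of the 10 and by 1521 of all 12969 lines. Both comparisons share the control libraries with the one that had chosen Plin2. In HS_AOSFMT against control 4 of the 10 lines were called without control 3, with Plin3 and Abhd5 added, and 26.1% of all lines were called in that fit.

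**Figure D2:**
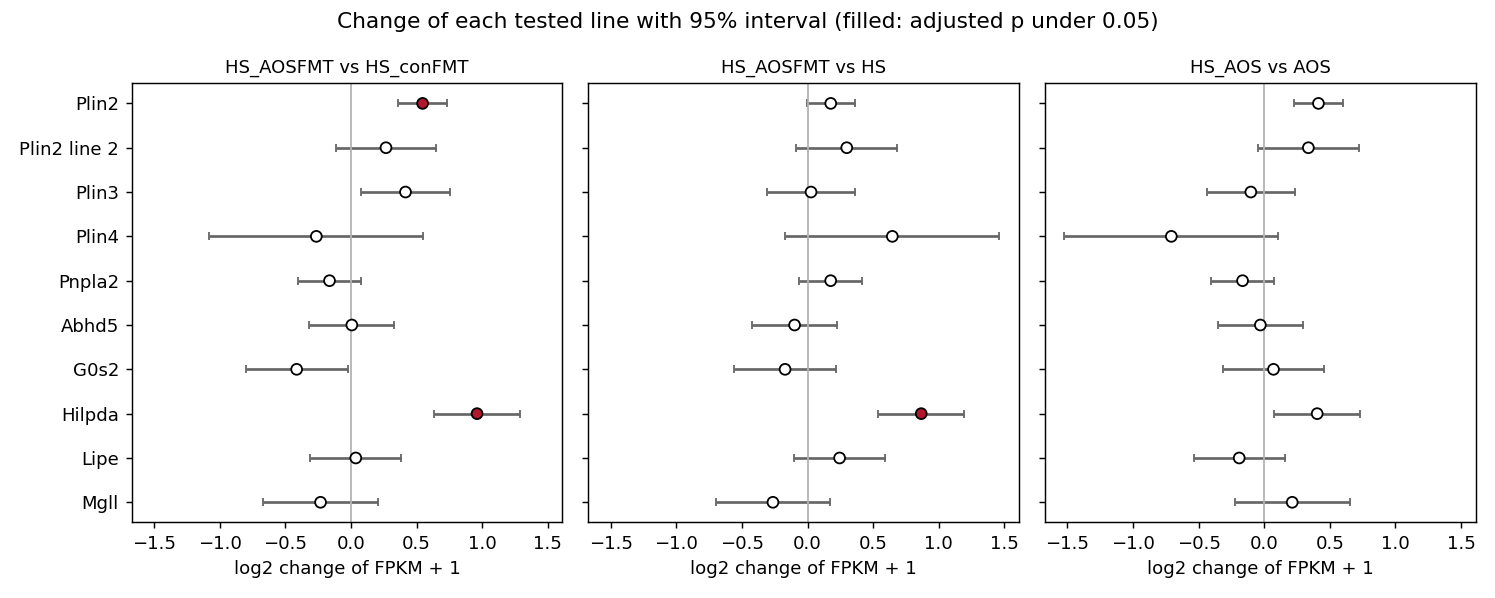
Log2 change of FPKM + 1 for the 10 tested lines in HS_AOSFMT vs HS_conFMT, HS_AOSFMT vs HS and HS_AOS vs AOS; bars are 95% intervals from limma and filled points have an adjusted p under 0.05. Plin2 (0.55) and Hilpda (0.96) are filled in the left panel, Hilpda (0.87) in the middle panel and none in the right panel.

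The promoter of Plin2 is shown because its start holds ACGTG, to which hypoxia-inducible factors are known to bind. ACGTG was the only form of the hypoxia response core searched here. In a palindrome, matches on both strands are not separate sites. Its 250 bases before and 10 after the transcription start (RefSeq, GRCm38.p6, chr4:86670050-86670309, minus strand) have that core on both strands, overlapping in the palindrome CACGTG in capitals, which spans the start.
Plin2: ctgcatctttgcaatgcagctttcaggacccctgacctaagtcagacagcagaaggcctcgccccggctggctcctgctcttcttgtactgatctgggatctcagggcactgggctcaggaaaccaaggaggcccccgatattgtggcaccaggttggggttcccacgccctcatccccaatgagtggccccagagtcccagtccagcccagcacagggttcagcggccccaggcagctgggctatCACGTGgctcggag
Within the 300-base promoters given by RefSeq (250 bases before the start and 50 after), searched on both strands, ACGTG occurred in 5 of the 14 promoters of the 10 genes, belonging to Plin2, Hilpda, Lipe and Mgll, and in 19.6% of all 32851 promoters. A pair of AGGTCA repeats with 1 base between them, the PPAR element, was found in 0 of the 14 with up to 1 mismatch in 12 bases, and in 0.554% of all promoters. The glucocorticoid response core ACANNNTGT occurred in 1, a promoter of Lipe, and in 6.85% of all promoters. A match describes letters and not binding, and no match speaks only of these windows and of the exact letters searched.

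The table held a further line under the symbol Plin2, with nothing to say which transcript it stands for. Its values were 0.66 to 1.25 FPKM in HS_AOSFMT, 0.40 to 1.26 FPKM in HS_conFMT, 0.82 to 1.11 FPKM in HS_AOS, 0.48 to 0.72 FPKM in HS, 0.32 to 0.73 FPKM in AOS and 0.72 to 1.18 FPKM in control. It was called in none of the 10 contrasts and is kept apart from the main line.

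Genes outside the list were ranked by the likeness of their pattern to that of Plin2. Over the 18 libraries the 5 genes with the highest Pearson correlation with Plin2, of 9466 with a mean of at least 5 FPKM, were Angptl4 (r = 0.877), Klf10 (0.870), Txlna (0.841), Plod2 (0.814) and Ppcs (0.811). Angptl4, whose product inhibits lipoprotein lipase and which PPAR receptors are known to induce, averaged 19.7 FPKM in HS_AOSFMT, 10.7 FPKM in HS_conFMT, 16.5 FPKM in HS_AOS, 16.5 FPKM in HS, 10.3 FPKM in AOS and 8.08 FPKM in control. Within the list, Hilpda (r = 0.803) and Plin3 (0.618) were nearest to Plin2. After subtraction of group means other genes led, Eif5b (0.828), Atf5 (0.819), Crcp (0.808), Cops2 (0.792) and Ccdc25 (0.787), and Hilpda stood at -0.028. The 18 points share 6 groups, and these correlations describe likeness of pattern alone.

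**Figure D3:**
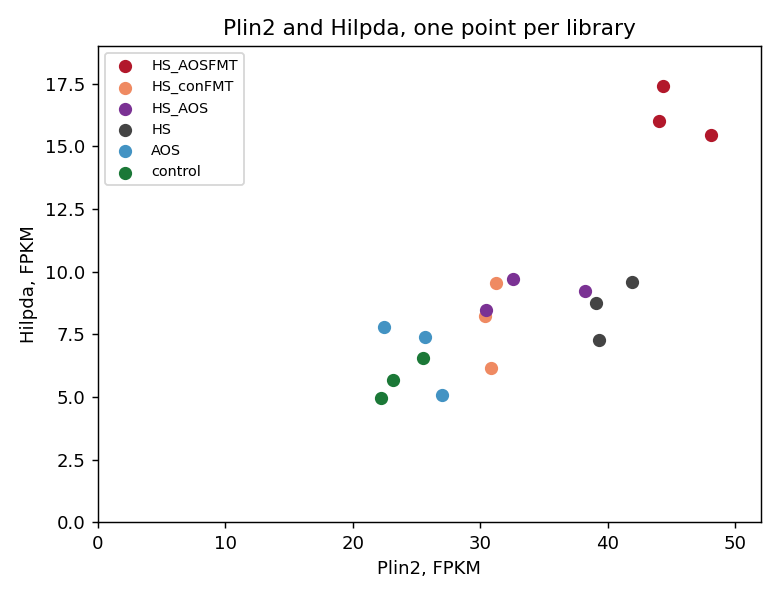
Hilpda against Plin2, both in FPKM, with 1 point per library coloured by group. The HS_AOSFMT libraries lie at the upper right, apart from the other 15; the HS libraries reach 39.1 to 41.9 FPKM of Plin2 with 7.25 to 9.57 FPKM of Hilpda, and HS_conFMT overlaps that range of Hilpda with 30.4 to 31.2 FPKM of Plin2.

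Plin3 (chr17:56277476-56292873, minus strand), a coat protein that moves from the cytosol to small, newly formed droplets, had its highest means in HS_AOSFMT and HS, and was called in no contrast. Its values were 14.7, 15.1 and 17.5 FPKM in HS_AOSFMT, 13.3, 10.7 and 10.7 FPKM in HS_conFMT and 15.0, 9.97 and 9.51 FPKM in HS_AOS. They were 14.3, 15.5 and 16.5 FPKM in HS, 12.4, 10.9 and 13.3 FPKM in AOS, and 9.33, 12.1 and 14.0 FPKM in control. HS_AOS 1, the acinar-rich library of its group, was the outlying one there. HS_AOSFMT and HS_conFMT did not overlap (log2 change 0.42, adjusted p = 0.129). Plin3 was called in that comparison once HS 1, HS_AOS 1 and control 1 were left out, when 7.39% of all lines were. None of the libraries left out belongs to the groups compared. The difference was therefore unchanged, and what moved was the shared estimate of the spread and the adjustment.

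Plin4 (chr17:56100591-56109803) and Plin5 (chr17:56111601-56117596) are neighbours on the minus strand of chromosome 17, 1797 bases apart. Plin4 coats droplets mainly in fat cells and Plin5 in tissues that burn fatty acids, such as heart. Plin4 was 1.02, 1.23 and 1.08 FPKM in HS_AOSFMT, 1.70, 3.45 and 0.35 FPKM in HS_conFMT, and 0.63, 0.73 and 0.31 FPKM in HS_AOS. It was 0.24, 0.70 and 0.16 FPKM in HS, 0.69, 2.93 and 1.42 FPKM in AOS, and 0.27, 1.62 and 1.37 FPKM in control. Spread within groups was wide and Plin4 was called in no contrast of the fit to all groups. HS_AOSFMT and HS did not overlap (log2 change 0.65, adjusted p = 0.280), and a fit to these 6 libraries alone called it, with 12.3% of all lines. Plin5 lay between 0.04 and 0.35 FPKM in all 18 libraries.

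The libraries high in Plin4 were also those high in adipocyte transcripts. The 15 adipocyte markers summed to 152 to 248 FPKM in HS_AOSFMT, 82.6 to 474 FPKM in HS_conFMT, 58.0 to 120 FPKM in HS_AOS, 44.2 to 123 FPKM in HS, 171 to 488 FPKM in AOS and 60.1 to 298 FPKM in control. The highest sums, in HS_conFMT 2 (474 FPKM) and AOS 2 (488 FPKM), came with the highest Plin4 values, 3.45 FPKM in HS_conFMT 2 and 2.93 FPKM in AOS 2. Lipe was also highest in these libraries, at 14.4 FPKM in HS_conFMT 2 and 11.1 FPKM in AOS 2. Adipoq, which encodes the adipocyte hormone adiponectin, was present in all 18 libraries at 0.83 to 20.4 FPKM, whereas leptin (Lep) was listed at 0 in 2. limma called 0 of the 11 tested adipocyte markers in each of the 10 contrasts, with 0 to 8 at an unadjusted p under 0.05. The part of adipocyte transcripts in Plin4 and Lipe was not tested. Plin2 was not raised there, with 31.2 FPKM in HS_conFMT 2, within 1 FPKM of the others of its group, and 25.7 FPKM in AOS 2, between the others.

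**Figure D4:**
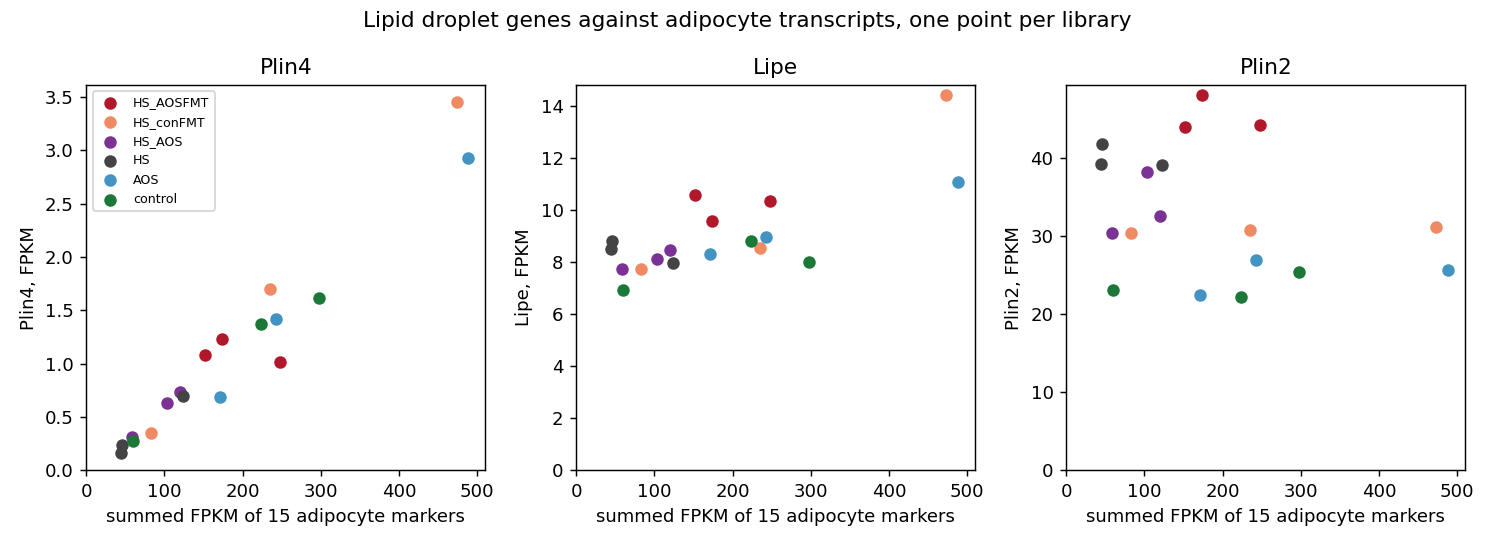
Plin4, Lipe and Plin2 in FPKM against the summed FPKM of 15 adipocyte markers, with 1 point per library coloured by group. The libraries at the right, HS_conFMT 2 (474 FPKM) and AOS 2 (488 FPKM), have the highest Plin4 and Lipe, and their Plin2 (31.2 FPKM in HS_conFMT 2, 25.7 FPKM in AOS 2) is close to that of their groups.

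Pnpla2 (chr7:141455198-141460743, plus strand), the gene of the triglyceride lipase, stayed between 20.6 and 34.9 FPKM. It gave 26.6, 22.7 and 26.1 FPKM in HS_AOSFMT, 26.9, 34.9 and 23.9 FPKM in HS_conFMT and 21.7, 24.0 and 22.5 FPKM in HS_AOS. HS libraries had 20.6, 23.1 and 22.5 FPKM, AOS libraries 24.8, 26.6 and 25.4 FPKM, and control libraries 21.0, 23.9 and 25.4 FPKM. HS_conFMT 2, with its high adipocyte sum, held the maximum. Pnpla2 was called in no contrast, and its largest change was 0.34 on the log2 scale in HS_conFMT against HS (95% interval 0.10 to 0.58, adjusted p = 0.719).

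Abhd5 (chr9:122351608-122381524, plus strand), the gene of the lipase activator, was highest in control. It measured 7.67, 7.93 and 7.26 FPKM in HS_AOSFMT, 9.11, 6.19 and 7.68 FPKM in HS_conFMT and 7.37, 7.70 and 8.65 FPKM in HS_AOS. It measured 8.64, 8.42 and 7.65 FPKM in HS, 7.55, 9.46 and 7.34 FPKM in AOS, and 14.4, 10.6 and 8.58 FPKM in control. HS_AOSFMT lay wholly below control, short of the threshold (log2 change -0.47, SE 0.15, adjusted p = 0.0533). Abhd5 was called with the replicate block, and with haemoglobin and acinar genes left out of the total. In these fits 15.0% and 7.89% of all lines were called. It was also called without control 3, with 26.1% of all lines. It was uncalled under all other alternatives, among them median-of-ratios scaling, the fit to these groups alone and control 1 left out. AOS against control gave -0.40 (SE 0.15, adjusted p = 0.355), with overlap, and -0.22 with control 1 set aside along with HS 1 and HS_AOS 1. The libraries with the most Abhd5, control 1 and control 2, also had the highest neutrophil marker sums, 16187 and 4433 FPKM, and the part of these in the difference was not tested. Exons of Abhd5 share 950 bases with the antisense gene A730085K08Rik, those of Lipe 918 bases with 4732471J01Rik and those of Mgll 167 bases with Gm26588. The strand setting of the counting is not given, so reads of each pair cannot be told apart.

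G0s2 (chr1:193272161-193273217, minus strand), whose product blocks the triglyceride lipase, was called in no contrast. It was 11.4, 8.55 and 11.7 FPKM in HS_AOSFMT, 12.1, 17.3 and 13.8 FPKM in HS_conFMT, and 12.4, 11.0 and 13.2 FPKM in HS_AOS. HS gave 8.84, 13.2 and 14.4 FPKM, AOS 10.9, 13.2 and 10.6 FPKM, and control 11.9, 11.2 and 16.6 FPKM. HS_AOSFMT lay wholly below HS_conFMT, with a log2 change of -0.41 (95% interval -0.80 to -0.025, adjusted p = 0.189), so that the means of the inhibitor genes G0s2 and Hilpda differed in opposite directions there.

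Hilpda (chr6:29272488-29275446, plus strand), whose transcript is a known target of hypoxia-inducible factors and of PPAR receptors, rose in HS_AOSFMT against each of HS_conFMT, HS and control. HS_AOSFMT libraries had 17.4, 15.4 and 16.0 FPKM. HS_conFMT libraries had 6.17, 9.56 and 8.22 FPKM, HS_AOS libraries 9.21, 9.72 and 8.47 FPKM, and HS libraries 9.57, 8.74 and 7.25 FPKM. AOS libraries had 7.77, 7.40 and 5.07 FPKM and control libraries 5.69, 6.57 and 4.97 FPKM. The 3 HS_AOSFMT values stood apart from the other 15, which reached 9.72 FPKM at most, and the ranges of HS_conFMT, HS_AOS and HS overlapped one another.

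The mean of Hilpda was 16.3 ± 1.02 FPKM in HS_AOSFMT, against 7.98 ± 1.71 FPKM in HS_conFMT (SD, n = 3 each), a ratio of 2.04 (log2 change 0.96, SE 0.15, 95% interval 0.63 to 1.29, adjusted p = 0.00343). Against 8.52 ± 1.18 FPKM in HS the ratio was 1.91 (log2 change 0.87, SE 0.15, adjusted p = 0.00668), and against 5.74 ± 0.801 FPKM in control it was 2.84 (log2 change 1.36, SE 0.15, adjusted p = 0.00017). These comparisons share the HS_AOSFMT libraries. Hilpda was called in all of them under every alternative, with the change against HS lowest, at 0.75, when haemoglobin and acinar genes were left out of the total. Hilpda was uncalled in the contrasts without HS_AOSFMT. HS against control gave a log2 change of 0.50 (95% interval 0.17 to 0.83, adjusted p = 0.600) and HS_AOS against AOS 0.40 (95% interval 0.076 to 0.73, adjusted p = 0.482), without overlap in either. HS_conFMT against control, with overlap, also gave 0.40 (95% interval 0.074 to 0.73, adjusted p = 0.368).

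Neutrophil and acinar marker sums did not overlap between the transplant groups in which Plin2 and Hilpda differed, and the sums of macrophage, lymphocyte and erythroid markers overlapped. Of all lines 5.85% were called in HS_AOSFMT against HS_conFMT. The 16 neutrophil markers summed to 1615 to 2192 FPKM in HS_AOSFMT, against 870 to 1399 FPKM in HS_conFMT. Of these, 16 of 16 were higher and 0 called, with a median log2 change of 0.63 beside 0.062 for all lines. Macrophage markers (15 genes) summed to 730 to 892 FPKM in HS_AOSFMT and 670 to 829 FPKM in HS_conFMT, with 1 called higher (Vcam1) and 1 lower (Slc40a1). Their median log2 change was 0.027 beside 0.062 for all lines. Acinar markers were at 23.8 to 63.9 FPKM in HS_AOSFMT and 76.8 to 3901 FPKM in HS_conFMT, with 19 of 19 lower, a median of -3.22 and 0 called. Lymphocyte markers summed to 2259 to 2729 FPKM in HS_AOSFMT and 1921 to 2791 FPKM in HS_conFMT, with 10 of 10 higher, a median of 0.26 and 0 called. Erythroid markers took 12.2 to 17.1% of FPKM in HS_AOSFMT and 13.9 to 33.8% in HS_conFMT, with 13 of 15 lower, a median of -0.29 and 0 called. The part of these transcripts in the rise of Plin2 and Hilpda was not tested.

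RefSeq gives Hilpda a pair of starts, and both are shown because Hilpda had the largest called changes of the 10 genes. The upstream start (GRCm38.p6, chr6:29272238-29272497, plus strand, 250 bases before and 10 after) holds no ACGTG in its 300-base promoter.
Hilpda: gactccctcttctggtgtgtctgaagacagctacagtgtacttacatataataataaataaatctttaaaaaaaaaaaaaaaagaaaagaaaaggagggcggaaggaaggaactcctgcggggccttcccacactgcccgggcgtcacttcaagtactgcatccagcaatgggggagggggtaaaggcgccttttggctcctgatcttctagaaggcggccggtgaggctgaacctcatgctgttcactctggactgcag
The downstream start has ACGTG once in its 300-base promoter, 43 bases before the start, given here with 10 bases on either side (chr6:29272573-29272597, plus strand) and the core in capitals.
Hilpda, downstream start: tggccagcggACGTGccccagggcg

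Lipe (chr7:25379527-25398710, minus strand), the gene of hormone-sensitive lipase, was called in no contrast. It was 10.3, 9.56 and 10.6 FPKM in HS_AOSFMT, 8.55, 14.4 and 7.71 FPKM in HS_conFMT, and 8.13, 8.44 and 7.72 FPKM in HS_AOS. HS libraries gave 8.82, 7.95 and 8.48 FPKM, AOS libraries 8.29, 11.1 and 8.94 FPKM, and control libraries 6.91, 7.99 and 8.82 FPKM. HS_AOSFMT lay above HS and above control without overlap, with log2 changes of 0.24 (adjusted p = 0.335) and 0.33 (adjusted p = 0.175). How many of all lines lacked overlap in these contrasts was not counted.

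Mgll (chr6:88724412-88828360, plus strand), the gene of the last lipase in the chain, ranged from 19.3 to 38.1 FPKM and was likewise called in no contrast. It gave 23.4, 24.9 and 19.6 FPKM in HS_AOSFMT, 36.9, 19.3 and 26.5 FPKM in HS_conFMT, and 27.4, 25.6 and 36.0 FPKM in HS_AOS. It gave 31.3, 24.6 and 26.3 FPKM in HS, 23.5, 30.1 and 22.5 FPKM in AOS, and 38.1, 31.0 and 25.7 FPKM in control. HS_AOSFMT lay wholly below control, at a log2 change of -0.45 (95% interval -0.89 to -0.016, adjusted p = 0.144).

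**Figure D5:**
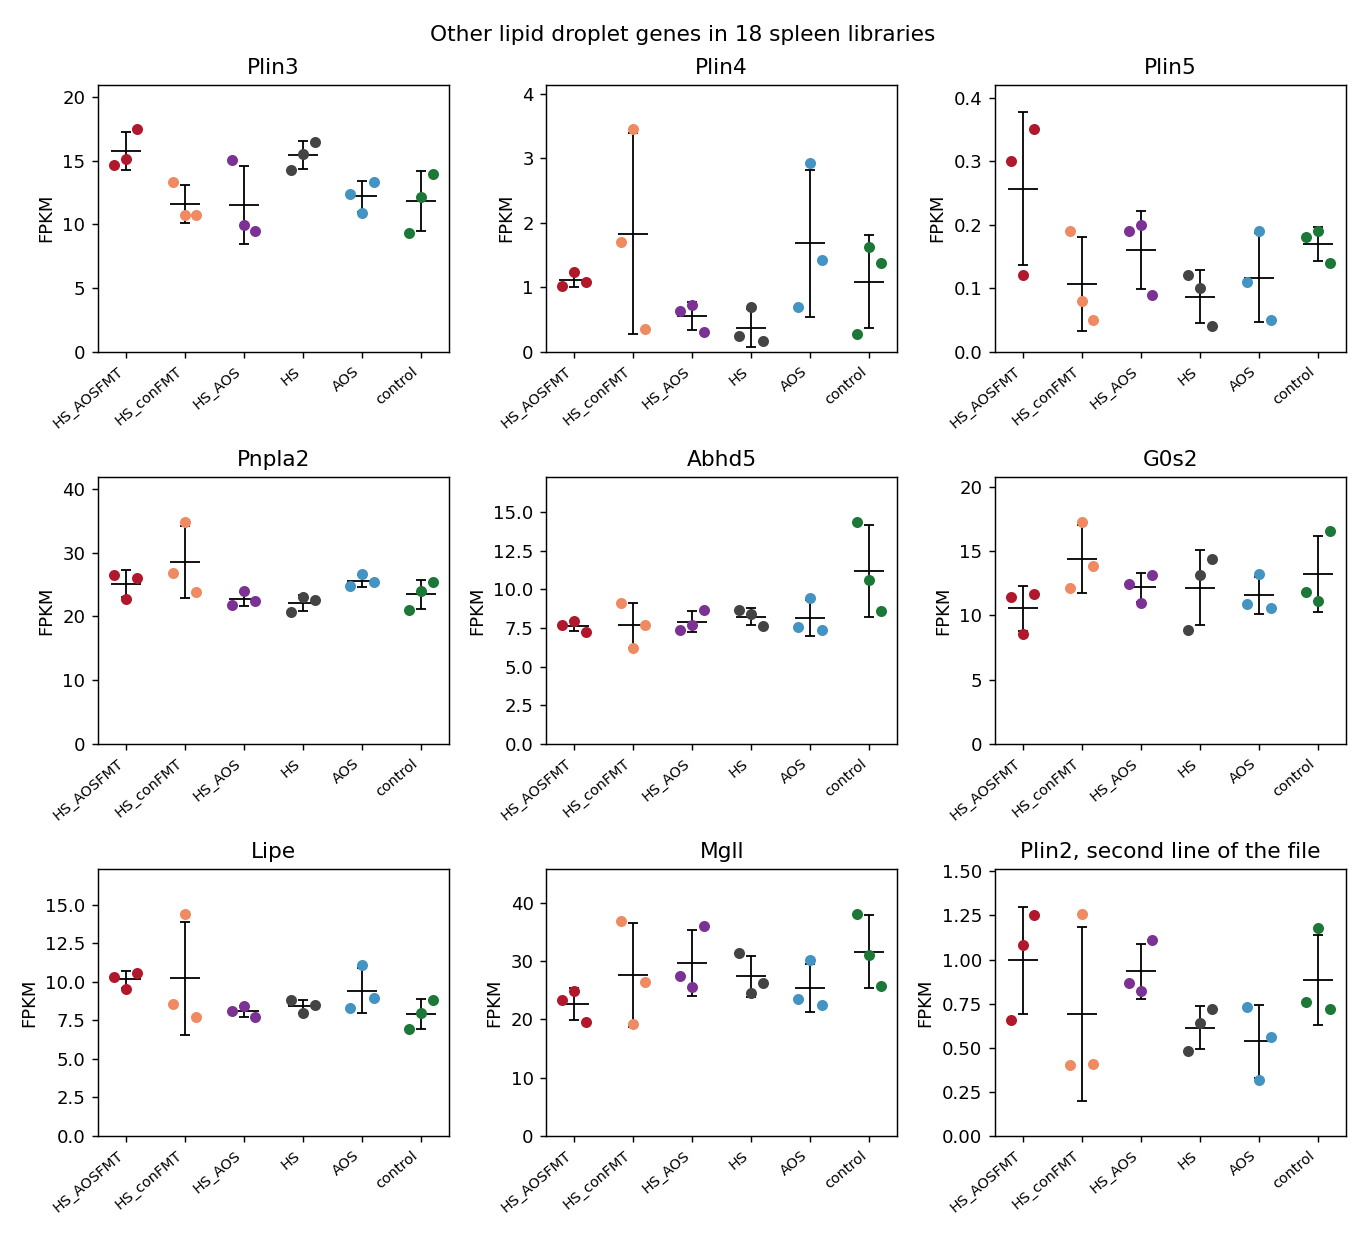
FPKM of Plin3, Plin4, Plin5, Pnpla2, Abhd5, G0s2, Lipe, Mgll and the further line under Plin2 in each of 18 libraries by group; points are libraries, the long dash is the group mean and the bar its SD (n = 3), and each panel has its own scale. Groups overlap in most panels; Plin4 peaks in HS_conFMT 2 (3.45 FPKM) and AOS 2 (2.93 FPKM), and Abhd5 in control 1 (14.4 FPKM).

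Other genes that build or cover droplets were counted from lists. Of the enzymes and proteins that make triglyceride and assemble droplets, 17 of 21 were tested, and in HS_AOSFMT against HS 2 rose and 0 fell, close to the 9.23% of all lines called there. The 2 were Dgat1, an enzyme of the last step of triglyceride synthesis (13.9 ± 0.654 FPKM in HS_AOSFMT, 8.75 ± 0.215 FPKM in HS, adjusted p = 0.0206), and Soat1, which esterifies cholesterol (14.3 ± 0.831 FPKM in HS_AOSFMT, 10.3 ± 0.603 FPKM in HS, adjusted p = 0.0331). The median log2 change of the list was 0.18 beside 0.10 for all tested lines. In HS_AOSFMT against control Soat1 rose and Acsl1, an acyl-CoA synthetase, fell (17.5 ± 3.27 FPKM in HS_AOSFMT, 28.0 ± 3.90 FPKM in control, adjusted p = 0.0314), which is again close to the 12% of all lines, with a list median of -0.020 beside 0.090. In the other 8 contrasts limma called 0, with 0 to 5 at an unadjusted p under 0.05; in HS_AOSFMT against HS_conFMT the list median was 0.0034 beside 0.062.

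Of 14 further droplet surface proteins 10 were tested. In HS_AOSFMT against HS 1 rose, Lpcat2, which makes phosphatidylcholine for the droplet surface (8.76 ± 1.39 FPKM in HS_AOSFMT, 5.54 ± 1.53 FPKM in HS, adjusted p = 0.0396), a share close to the 9.23% of all lines, and the list median was 0.21 beside 0.10. In the other 9 contrasts limma called 0, with 0 to 2 at an unadjusted p under 0.05.

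PPAR targets and genes of fatty acid oxidation were counted as well, 21 of 24 being tested, since Plin2 and Hilpda belong to the known targets of these receptors. In HS_AOSFMT against HS_conFMT 2 rose, Angptl4 (19.7 ± 2.68 FPKM in HS_AOSFMT, 10.7 ± 1.61 FPKM in HS_conFMT, adjusted p = 0.0227) and Pdk4, a brake on glucose oxidation (13.5 ± 2.06 FPKM in HS_AOSFMT, 7.38 ± 1.93 FPKM in HS_conFMT, adjusted p = 0.0463). Of all lines 5.85% were called there, and the list median was 0.051 beside 0.062. In HS_AOS against AOS, where 0.0386% of all lines were called, 1 rose, the acyl-CoA thioesterase Acot1 (8.73 ± 1.28 FPKM in HS_AOS, 1.65 ± 0.236 FPKM in AOS, adjusted p = 0.0337), with a median of 0.21 beside -0.012. In HS_AOSFMT against HS 1 rose (Pdk4), beside 9.23% of all lines, with a median of 0.078 beside 0.10. In HS_AOSFMT against control 6 rose, beside 12% of all lines, with a median of 0.14 beside 0.090, and 0 fell in either. In the other 6 contrasts limma called 0, with 0 to 7 at an unadjusted p under 0.05. The list median was 0.13 beside -0.015 in HS against control (14 of 21 higher). It was 0.12 beside 0.024 in HS_conFMT against control (18 of 21 higher). It was 0.11 beside 0.039 in HS_AOS against HS and 0.079 beside 0.0021 in the difference of the diet contrasts. It was below that of all lines in HS_conFMT against HS (-0.026 beside 0.032) and in AOS against control (0.039 beside 0.046).

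Of 18 hypoxia-responsive genes, which leave out Hilpda, 17 were tested. In HS_AOSFMT against HS_conFMT 1 rose, Egln1, an oxygen sensor (16.5 ± 1.10 FPKM in HS_AOSFMT, 12.3 ± 1.01 FPKM in HS_conFMT, adjusted p = 0.0431), beside 5.85% of all lines called, with a list median of 0.096 beside 0.062. In HS_AOSFMT against HS 1 rose, Bnip3 (8.87 ± 0.676 FPKM in HS_AOSFMT, 6.22 ± 0.281 FPKM in HS, adjusted p = 0.0272), and against control 1 rose, P4ha1 (40.5 ± 5.18 FPKM in HS_AOSFMT, 16.2 ± 6.19 FPKM in control, adjusted p = 0.0317). These counts lie near or below the shares of all lines called in the same contrasts, 9.23% against HS and 12% against control. In the other 7 contrasts limma called 0, with 0 to 3 at an unadjusted p under 0.05.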

How the data were processed

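Per the submitters' processing notes, reads were aligned with Bowtie 0.12.2 to mm10. How genes were counted, with which strand setting and on which annotation, is not given in the sources used here. Values in the deposited table were taken as FPKM made by the authors. The unit was inferred from the values: summed FPKM varied by 6.14% (coefficient of variation) between libraries and length-weighted sums by 1.61%, with 97.1% of symbols matched to GENCODE M21. The table gives no counts, so depth and counting error are unknown. Coordinates are from GENCODE M21 (mm10) and promoters from RefSeq (GRCm38.p6), which had 1 or more for all 10 genes.

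The test was limma (version 3.58.1, R 4.3.3) on log2(FPKM + 1) of 12969 lines over 18 libraries, with group as factor and eBayes with trend and robust. A pseudocount of 1 understates the change of low genes. Tests were two-sided, adjusted by Benjamini-Hochberg within each of 10 contrasts, at a threshold of 0.05. A line past it is called. The unadjusted counts of the lists have to be read beside those of all 12969 lines. There 674 to 1521 lines had an unadjusted p under 0.05 in the contrasts without HS_AOSFMT, and 2951 to 4133 in those with it. The script was tested on simulated data. Where a symbol stood on 2 lines, as for 3 symbols, the more abundant line was taken as the gene.

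The genes and lists were chosen with earlier results of these data known. By rule, all 10 genes are given by level. Test values are given for Plin2 in every contrast but HS against control, which chose it. They are also given for each other called gene and for the smallest p in a contrast without a call. Other test values printed for these 10 genes were chosen after their values were seen. From each list up to 3 genes with the smallest p are named, and the 5 genes most like Plin2 by each of 2 measures.

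Alternatives were a pseudocount of 0.1, no filter, 2 other scalings (library totals without haemoglobin and acinar genes; median of ratios), a fit to the groups of a contrast alone, the replicate number as a block, HS 1, HS_AOS 1 and control 1 set aside, and each library left out. Same-numbered libraries deviated together in HS_AOS and HS, where the lowest correlation of the 3 pairs was 0.287. The labels give no pairing, so whether the numbers pair these groups is unknown. Values printed for HS_AOS against HS are from the fit without the block. With the block the calls stayed at 0 there, and the limma adjusted p of Plin2 was 0.703 in place of 0.827.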

Additional observations from a re-analysis of the deposited data

Results flagged for a closer look

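The change of Plin2 against HS differed between the recipients of AOS-donor and control-donor transplants. HS_AOSFMT minus HS_conFMT was 0.55 on the log2 scale (limma, adjusted p = 0.00331), with the HS_AOSFMT mean above that of HS and the HS_conFMT mean below it. Hilpda differed in the same way by 0.96 (adjusted p = 0.00343), with HS_conFMT close to HS. In each case all 3 HS_AOSFMT libraries were above all 3 HS_conFMT libraries. HS cancels from these differences, which are the direct comparison of the transplant groups already given. Outlying libraries were not tested for, because all groups have 3.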

How the results depend on the processing

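No change printed for Plin2, Hilpda or Abhd5 by rule turned its direction under any alternative run. The counts of called lines moved by over 1.5 times in 3 cases. HS against control, which had chosen Plin2 and is described only, called 0 in place of 1 when fitted to its groups alone. HS_AOSFMT against HS called 2 in the same kind of fit, with Plin4 added. In HS_AOSFMT against control, leaving out each library in turn gave 2 to 4. In the comparisons other than HS_AOS against HS, the lowest correlation of same-numbered libraries was between -0.37 and 0.017. With the replicate block HS_AOSFMT against control called 3 (Abhd5 added), HS_AOSFMT against HS called 1, HS_AOSFMT against HS_conFMT called 2 and HS against control called 1, and the other 6 contrasts called 0. Counts over all lines were less stable. HS_AOSFMT against HS called 1197 (1048 higher, 149 lower), 370 (213 higher, 157 lower) with haemoglobin and acinar genes left out of the total, 790 (499 higher, 291 lower) with median-of-ratios scaling and 403 when HS 1, HS_AOS 1 and control 1 were left out. HS_AOSFMT against HS_conFMT called 759 (624 higher, 135 lower), 479 (256 higher, 223 lower), 756 (439 higher, 317 lower) and 955 under these settings, and 191 in the fit to its groups alone. HS_AOSFMT against control called 1558 (1255 higher, 303 lower), 1023 (565 higher, 458 lower), 1374 (784 higher, 590 lower) and 434, and 203 in the fit to its groups alone. With each library left out in turn, HS_AOSFMT against HS called 200 (without HS_AOSFMT 1) to 751 (without HS 2), HS_AOSFMT against HS_conFMT 198 (without HS_conFMT 1) to 1200 (without HS_conFMT 2) and HS_AOSFMT against control 445 (without HS_AOSFMT 3) to 3376 (without control 3). In the 7 contrasts with fewer calls the count was 0 to 101 over all alternatives, the highest in HS_conFMT against control without control 3. The 2 scalings moved the median of all lines in HS_AOSFMT against HS by -0.11 and -0.10, and median-of-ratios scaling that in HS_AOSFMT against control by -0.10. The cause was not tested. Unknown depth limits Plin5 and the further line under Plin2, and 3 libraries a group limit what passes: Plin2 in HS_AOS against AOS had an interval wholly above 0 and did not pass.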

Other observations

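Glucocorticoid-responsive genes, of which 13 of 13 were tested, also rose in HS_AOSFMT, the group in which Hilpda was highest. In HS_AOSFMT against HS_conFMT 4 rose, among them Fkbp5 (27.0 ± 4.86 FPKM in HS_AOSFMT, 12.5 ± 2.16 FPKM in HS_conFMT, limma adjusted p = 0.000347) and Zbtb16 (1.78 ± 0.222 FPKM in HS_AOSFMT, 0.547 ± 0.202 FPKM in HS_conFMT, adjusted p = 0.00071), with 5.85% of all lines called and a list median of 0.39 beside 0.062. Against HS 9 rose (9.23% of all lines called, median 0.84 beside 0.10) and against control 12 rose (12% of all lines, median 1.03 beside 0.090), and 0 fell in any of these. In HS_conFMT against control 1 rose, beside 0.0386% of all lines, with 10 of 13 higher and a median of 0.36 beside 0.024. In the other 6 contrasts limma called 0, with 0 to 8 at an unadjusted p under 0.05. The 8 were in HS_conFMT against HS, where 12 of 13 were higher and the median was 0.34 beside 0.032. The list was built with earlier results of these libraries known, and its part in the levels of Plin2 and Hilpda was not tested.

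Spleen lymphocyte markers (10 tested) rose in 2 of 10 genes in HS_AOSFMT against HS, where 9.23% of all lines were called, and in 5 of 10 against control, where 12% were. Erythroid markers (15 tested) fell in 1 gene in HS_AOSFMT against HS and in 3 against control, the first a share below that of all lines, and 17 of 19 acinar markers fell in HS_AOSFMT against HS.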
